A study of Mus musculus with 6 samples.

Results

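Wild-type mouse macrophages that met lipopolysaccharide (LPS) for the second time were compared with wild-type macrophages that met it for the first time. The comparison covered 9686 measured genes of the 23699 rows in each deposited table. A gene was measured if its row was marked OK in both libraries, its symbol stood at 1 locus, and it had at least 2 FPKM (read fragments divided by transcript length and by library size) in either library. Ratios are on the log2 scale of FPKM + 1, which understates the difference for genes with few FPKM, and a difference of at least 2-fold (a log2 ratio of 1 or -1) was the rule of size.

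The cells were peritoneal macrophages, the phagocytes resident in the abdominal cavity, kept in DMEM medium with 10% fetal bovine serum. Tolerized cells (C57Bl/6, wild type, WT) had 10 ng/ml LPS for 15 h, a wash and a rest of 2 h, and then 1000 ng/ml LPS for 4 h. LPS cells of the same strain and genotype had only 1000 ng/ml LPS for 4 h, and naive cells had none. The same 3 treatments of macrophages labelled as miR-221/222 -/Y knockout (KO), on the same strain background, are given beside them. Each of these groups was 1 library, so no difference had a replicate check and none was tested. The design text speaks of triplicates, and whether a library pooled animals or cultures is not given in the sources used here. Tolerized cells also differed from LPS cells in the hours spent in culture after the first dose. The labels do not say how long LPS cells were cultured beforehand, so this cannot be told apart from the first dose itself.

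LPS, a lipid of the outer membrane of Gram-negative bacteria, binds Toll-like receptor 4 (TLR4) with its co-receptors CD14 and MD-2. The adaptor MyD88 leads from there to NF-kappaB and AP-1 and to inflammatory cytokines, while the adaptor TRIF leads to interferon beta, whose receptor switches on antiviral genes through a complex that holds STAT2 and IRF9. Macrophages exposed to LPS once respond differently to a later dose, a state called endotoxin tolerance. In earlier work on tolerance, part of the LPS-induced genes responded weakly to the later dose and another part, rich in antimicrobial genes, kept its response or exceeded it.

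FPKM summed to 671951 in the tolerized and 681618 in the LPS library. The numbers of reads were not used here. The deposited 95% intervals come from 1 library each and cover no spread between replicates. Their median half-width was 5.05% in tolerized and 5.70% in LPS cells for genes at 10 FPKM or more. Both libraries had the macrophage genes Emr1 (922 FPKM in tolerized and 278 FPKM in LPS cells), which encodes F4/80, Lyz2 (13872 FPKM in tolerized and 19661 FPKM in LPS cells) and Csf1r (257 FPKM in tolerized and 147 FPKM in LPS cells). Genes of other cells were also present: the 13 measured B cell markers summed to 646 FPKM in tolerized, 429 FPKM in LPS and 982 FPKM in naive cells. The 5 measured T and NK cell markers summed to 28.2 FPKM in tolerized and 14.6 FPKM in LPS cells, and the 4 neutrophil markers to 280.5 FPKM in tolerized and 161 FPKM in LPS cells. For the 5 mast cell and eosinophil markers the sums were 134.7 FPKM in tolerized and 109.8 FPKM in LPS cells, and for 4 dendritic cell markers 1 gene, Cd209a, was past 2-fold. The 2 measured erythroid and platelet markers summed to 4877 FPKM in tolerized, 952 FPKM in LPS and 452 FPKM in naive cells, nearly all of it Pf4, while the platelet genes Itga2b and Gp9 were under 0.5 FPKM in all 3. The neutrophil granule genes Mpo and Elane were at or below 0.0223 FPKM in both. The 4 measured fibroblast genes, Dcn, Col1a1, Col1a2 and Col3a1, summed to 17.7 FPKM in tolerized and 3.07 FPKM in LPS cells, whereas the mesothelial genes Msln, Upk3b and Krt19 stayed under 0.5 FPKM in both. In bulk RNA, fewer cells of a type and less RNA per cell cannot be told apart. The part of these cells in the results below was not tested.

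In tolerized cells 2018 genes (20.8% of those measured) were at least 2-fold higher than in LPS cells, and 444 (4.58%) were at least 2-fold lower. The other 7224 lay within 2-fold. The deposited intervals of the libraries did not overlap for 2002 of the higher and 437 of the lower genes. They did not overlap for 7861 of all 9686 measured genes either, so most measured genes met this condition. Where a gene was listed at 0, as Gm5483 was in LPS cells, both bounds were 0 too. Just inside the limits were Alkbh8 (4.08 against 1.54 FPKM) and Pcna (74.9 against 151 FPKM), and just outside were Ints10 (6.29 against 2.65 FPKM) and Enpp1 (1.32 against 3.64 FPKM), each in tolerized against LPS cells. At least 8-fold differences were found for 39 higher and 37 lower genes, and at least 16-fold ones for 14 higher and 9 lower genes.

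The balance of higher and lower genes depended on the scale. The median log2 ratio of all measured genes was 0.47: a typical gene read higher in tolerized cells. When both libraries were rescaled by their median ratio, which moved log2 ratios of abundant genes down by about 0.41, those of genes with few FPKM by less and the median to 0.10, 903 genes (9.32%) were at least 2-fold higher and 795 (8.21%) at least 2-fold lower. Since rescaling moved every ratio down, the 444 lower genes could only stay past 2-fold. Of the 2018 higher ones 903 stayed past it. A list is therefore described below by its counts on the deposited scale and by its median less 0.47. Its counts stand beside 20.8% higher and 4.58% lower genes among all measured (9.32% and 8.21% after rescaling). The median of all genes also depended on level. It was 0.70 where the larger value was 2 to 5 FPKM, 0.17 at 30 to 100 FPKM and -0.53 at 1000 FPKM or more. Beside 0.47, a list of abundant genes thus reads low and one of genes with few FPKM high. The KO libraries had a like shift, with a median of 0.56, 2325 higher genes (24.0%) and 421 lower (4.35%) of 9685, or 901 (9.30%) and 823 (8.50%) when rescaled.

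The lower genes were abundant in LPS cells, whose high values also enter the rule that called them. Their median was 16.4 FPKM in tolerized, 57.8 FPKM in LPS and 15.6 FPKM in naive cells, and together they held 6.92% of all FPKM in tolerized and 25.9% in LPS cells. In tolerized cells 134 (30.2%) of them were at least 2-fold above naive, 200 (45%) within 2-fold and 110 (24.8%) at least 2-fold below. In LPS cells 294 (66.2%) were at least 2-fold above naive. Of 82 genes reaching 1000 FPKM in either library 22 (26.8%) were at least 2-fold lower, against 40 of 1735 (2.31%) at 2 to 5 FPKM. At least 2-fold higher were 10 (12.2%) and 493 (28.4%) of the same genes. Levels here are the larger of the 2 values that the rule compares, so these shares are not independent of it. The higher genes had a median of 9.23 FPKM in tolerized, 2.91 FPKM in LPS and 11.7 FPKM in naive cells. They held 29.6% of all FPKM in tolerized and 8.93% in LPS cells, but 1 gene made up most of the tolerized share. Saa3, an acute phase protein of the serum amyloid family, had 117289 FPKM in tolerized, 34694 FPKM in LPS and 10567 FPKM in naive cells, or 17.5%, 5.09% and 1.84% of all FPKM. Abundant genes thus appear on both sides of the plot of all measured genes.

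**Figure D1:**
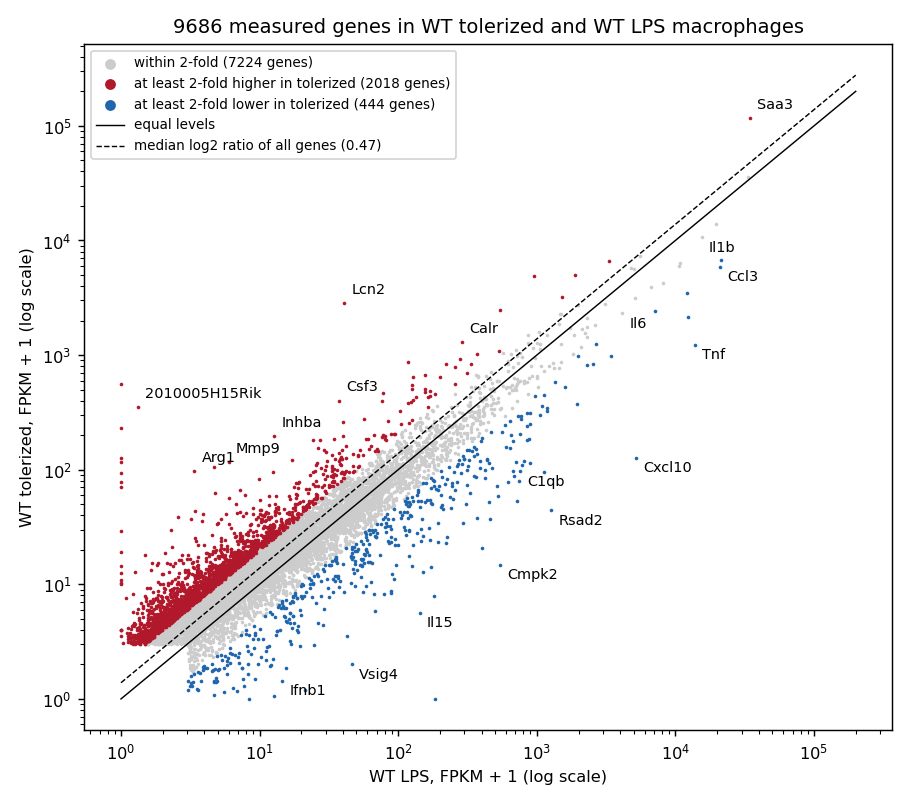
FPKM + 1 of 9686 measured genes in WT tolerized (vertical) and WT LPS macrophages (horizontal), both log scales, 1 library each. Genes at least 2-fold lower in tolerized cells reach to the highest levels (Tnf, Ccl3, Cxcl10), while most of the 2018 higher genes lie below 100 FPKM in LPS cells, and the dashed line marks the median log2 ratio of 0.47.

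The 20 genes lowest in tolerized cells relative to LPS cells, among those with at least 10 FPKM in either library and intervals that did not overlap, included 7 of the interferon-stimulated antiviral genes described below and 6 ligands of the interleukin, TNF and interferon families. Cxcl10, a chemokine that draws T cells, led with 125 FPKM in tolerized, 5175 FPKM in LPS and 2.08 FPKM in naive cells, a log2 ratio of -5.36 (counting interval -5.41 to -5.30). Cmpk2, a mitochondrial nucleotide kinase, had 13.9 FPKM in tolerized, 546 FPKM in LPS and 1.18 FPKM in naive cells (-5.20). Its neighbour Rsad2, the antiviral enzyme viperin, had 43.1 FPKM in tolerized, 1273 FPKM in LPS and 1.23 FPKM in naive cells (-4.85). In each of the 3 the tolerized value lay between the naive and the LPS value.

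Il15, a cytokine for NK and memory T cells, had 4.64 FPKM in tolerized, 142 FPKM in LPS and 6.78 FPKM in naive cells (-4.67), so that its tolerized level was below naive. Plagl1, a zinc finger transcription factor, was close to absent in tolerized and naive cells, with 0.185 FPKM in tolerized, 20.4 FPKM in LPS and 0.15 FPKM in naive cells (-4.17). The remaining members of the group were the antiviral genes Ifit1, Ifit2, Ifit3, Mx1 and Fam26f (Calhm6), I830012O16Rik (Ifit3b), which is not in the antiviral list, the ligands Tnf, Tnfsf9, Tnfsf15, Il27 and Ifnb1, the macrophage genes Vsig4, Ear2 and Mmd, and the dendritic cell marker Cd209a. All 20 log2 ratios were at or below -3.32, and 16 of the 20 genes were also at least 2-fold lower in KO tolerized than in KO LPS cells. The 4 others were Vsig4, Ear2, Mmd and Cd209a.

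The 20 highest genes were of another kind. 2010005H15Rik and Gm5483, which RefSeq names Csta2 and Cstdc4, and Stfa3 belong to the stefins, inhibitors of cysteine proteases. 2010005H15Rik had 354 FPKM in tolerized, 0.331 FPKM in LPS and 0.151 FPKM in naive cells (log2 8.06). Gm5483 had 92.4 FPKM in tolerized cells and was listed at 0 in LPS and naive cells, and Stfa3 had 37.9 FPKM in tolerized and 1.58 FPKM in LPS cells and was listed at 0 in naive cells. Tolerized cells were thus the only WT cells with more than 1.58 FPKM of any of the 3. The 3 are neighbours on chromosome 16 (36184298 to 36455478, mm9) and resemble each other, so the division of reads among them is uncertain.

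Lcn2, the siderophore-binding protein lipocalin 2, had 2862 FPKM in tolerized, 39.7 FPKM in LPS and 2.37 FPKM in naive cells (log2 6.14, counting interval 6.01 to 6.27). Arg1, the arginase that competes with nitric oxide synthase for arginine, had 96 FPKM in tolerized, 2.38 FPKM in LPS and 16.7 FPKM in naive cells (4.84), so that its LPS level was the lowest of the 3. Cyp1b1, a cytochrome P450 of xenobiotic metabolism, had 105 FPKM in tolerized, 3.72 FPKM in LPS and 2.08 FPKM in naive cells (4.49). Further genes of the 20 were the gelatinase gene Mmp9 (4.29), Inhba for the activin A subunit (3.93), the sialoadhesin gene Siglec1 (3.71), the glutamate transporter gene Slc1a2 (3.67) and Csf3, the granulocyte colony-stimulating factor (3.43). Ly6i, Cdh6, A430084P05Rik (Scimp), A830007P12Rik (Tor4a), Antxr1, Itgb8, Trem3 and Mmp3 had log2 ratios of 3.21 to 3.73. Gp6, the platelet collagen receptor gene, had 13.5 FPKM in tolerized cells and was listed at 0 in LPS and naive cells. All 20 were above naive in tolerized cells, and 15 of the 20 were at least 2-fold higher in KO tolerized than in KO LPS cells as well. The 5 others were Mmp9, Inhba, Ly6i, Itgb8 and Mmp3. The 20 do not stand for all 2018 higher genes. Of those, 273 (13.5%) were at least 2-fold above naive in tolerized cells, and 1430 (70.9%) were within 2-fold of naive. In 1502 (74.4%) the LPS level was at least 2-fold below naive.

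**Figure D2:**
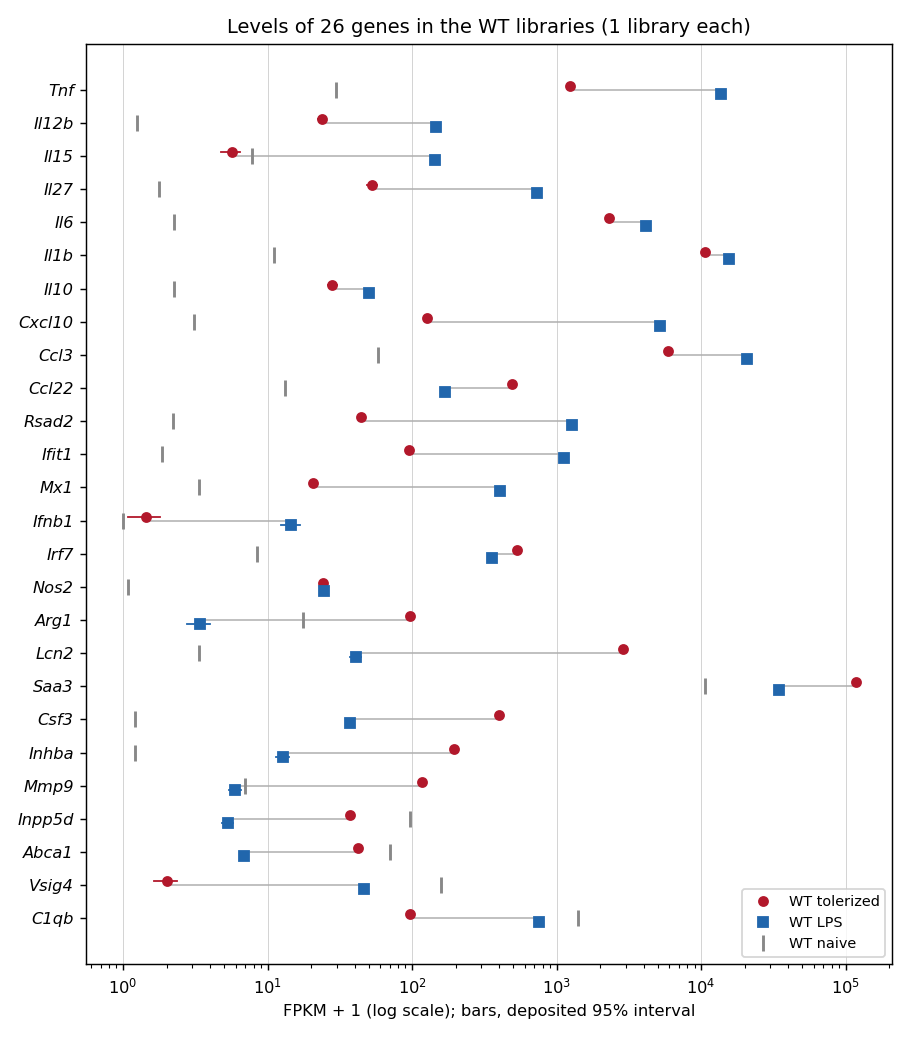
FPKM + 1 (log scale) of 26 genes in WT tolerized (circles), WT LPS (squares) and WT naive cells (ticks), 1 library each, with deposited 95% intervals as bars. Circle and square coincide for Nos2 (log2 -0.01) and lie farthest apart for Cxcl10 (-5.36), Rsad2 (-4.85), Arg1 (4.84) and Lcn2 (6.14), with the circle to the right where tolerized cells were higher.

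The interferon pathway was followed from ligand to targets. Ifnb1, the gene of interferon beta, had 0.438 FPKM in tolerized and 13.5 FPKM in LPS cells and was listed at 0 in naive cells (log2 -3.34, counting interval -3.76 to -2.92). The receptor subunit genes Ifnar1 (65.6 against 39.9 FPKM) and Ifnar2 (329 against 175 FPKM) read higher in tolerized than LPS cells without reaching 2-fold. Irf9 had 44.5 FPKM in tolerized, 73 FPKM in LPS and 23.9 FPKM in naive cells, within 2-fold of LPS cells. Stat2 was at least 2-fold lower, with 31.4 FPKM in tolerized, 86.6 FPKM in LPS and 11.6 FPKM in naive cells (-1.43), and so was Irf1, a factor induced by interferons and NF-kappaB, with 73.3 FPKM in tolerized, 315 FPKM in LPS and 65.6 FPKM in naive cells (-2.09). Irf7, the factor that amplifies interferon production, was higher by less than 2-fold, with 529 FPKM in tolerized, 356 FPKM in LPS and 7.45 FPKM in naive cells (0.57). Of the 10 interferon and IRF genes measured, 2 were at least 2-fold lower and 1, Ifng, at least 2-fold higher (6.49 against 2.51 FPKM), with 5 lower and none higher after rescaling. Of 19 JAK-STAT genes 1 was lower, Stat2, and 1 higher, the receptor gene Il6ra (6.15 against 0.846 FPKM).

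Of 57 measured interferon-stimulated antiviral genes 42 were at least 2-fold lower in tolerized cells and 3 at least 2-fold higher, against 4.58% and 20.8% of all genes. After rescaling the counts were 48 and 2. The list's median log2 ratio was -1.41, which is 1.88 below that of all genes. Mx1, a dynamin-like antiviral GTPase, had 19.7 FPKM in tolerized, 403 FPKM in LPS and 2.33 FPKM in naive cells (-4.29), Oasl1 had 79.4 FPKM in tolerized, 746 FPKM in LPS and 0.718 FPKM in naive cells (-3.22), and Isg15, a ubiquitin-like modifier, had 372 FPKM in tolerized, 1941 FPKM in LPS and 4.19 FPKM in naive cells (-2.38). The sensor gene Ifih1, which encodes MDA5, had 49.5 FPKM in tolerized, 307 FPKM in LPS and 7.95 FPKM in naive cells (-2.61). In tolerized cells 55 of the 57 had more FPKM than in naive cells, and in LPS cells all 57 did.

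The 3 antiviral genes with higher levels in tolerized cells were these. Ifi27l2a had 478 FPKM in tolerized, 154 FPKM in LPS and 50.3 FPKM in naive cells (1.62), Lgals3bp, a secreted galectin-binding glycoprotein, had 843 FPKM in tolerized, 334 FPKM in LPS and 156 FPKM in naive cells (1.33), and Ifitm1, an antiviral membrane protein, had 12.7 FPKM in tolerized, 3.26 FPKM in LPS and 2.06 FPKM in naive cells (1.69). The 2-fold call of Lgals3bp was lost on rescaling (0.93). Oas1a, Zbp1, Bst2 and Ifitm3 lay within 2-fold, at log2 ratios of -0.70, -0.30, 0.60 and 0.47.

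The interferon-inducible GTPases, which attack vacuoles that hold microbes, were lower for the most part. Of 14 measured, 10 were at least 2-fold lower and none at least 2-fold higher (12 and none after rescaling), with a median 2.54 below that of all genes. Ifi47 had 87.8 FPKM in tolerized, 687 FPKM in LPS and 13.6 FPKM in naive cells (-2.95) and Gbp5 had 119 FPKM in tolerized, 811 FPKM in LPS and 6.88 FPKM in naive cells (-2.76). Gbp4 (10.3 against 10.6 FPKM) and Gbp9 (16.5 against 16 FPKM) had overlapping intervals in the 2 libraries. In KO cells 13 of the 14 were at least 2-fold lower. Members of this family share sequence, so reads may be divided among them.

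Genes of this response lie in families on the chromosomes, and whole runs of neighbours were lower together. Among measured genes in chromosome order there were 15 runs of at least 3 neighbours that were all at least 2-fold lower. They held 61 genes, against a share of lower genes of 4.58%. The longest held 10 genes of the Ifi200 family of nucleic acid sensors on chromosome 1 (175451442 to 175961886, mm9), BC094916, Pydc4, Pyhin1, Pydc3, AI607873 (Ifi207), Ifi204, Mndal, Mnda, Ifi203 and Ifi205. Their log2 ratios ran from -3.28 to -1.73, and all 10 were also past 2-fold in KO cells. On chromosome 19 (34625184 to 34724499) 6 Ifit genes ran from -4.52 to -1.67, and on chromosome 14 (59863278 to 60059714) 5 genes of the Phf11 family and Setdb2 ran from -2.33 to -1.50. In KO cells 5 of the 6 Ifit genes and 4 of these 6 were past 2-fold. Further runs held the schlafens (Slfn2, Slfn1, Slfn4 and Slfn3, and Slfn5, Slfn9 and Slfn8), Trim12c with Trim30a, Trim30b and Trim30d, Igtp with Irgm2, Parp14 with Dtx3l and Parp9, and Gbp5 with Gbp7 and Gbp3. Not every run was such a family. Others held the C1q genes, Ccl6 with Ccl3 and Ccl4, and Ifih1 with Gca and Stk39, which span 5876 kb. Genes that were not measured may lie between neighbours.

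**Figure D3:**
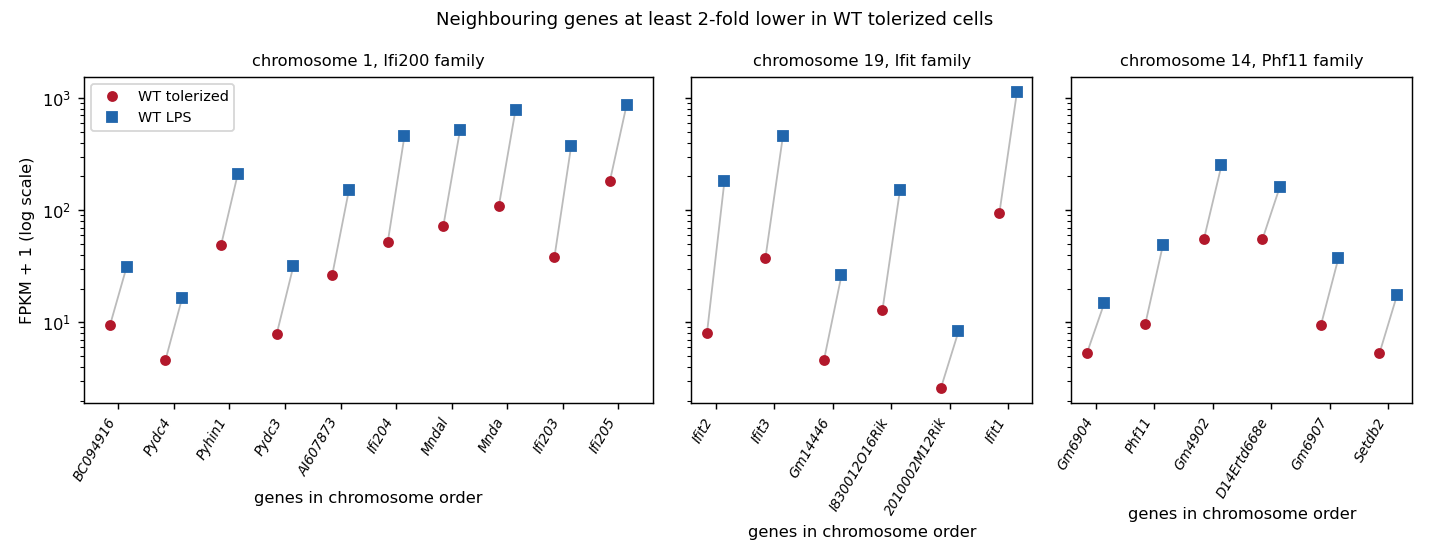
FPKM + 1 (log scale) of neighbouring genes in chromosome order in WT tolerized (circles) and WT LPS cells (squares), 1 library each, for runs of 10, 6 and 6 genes. Every tolerized value lies below the LPS value of the same gene.

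Runs of higher genes were more numerous, 103 with 352 genes against a share of higher genes of 20.8%, and none had more than 6 genes. They included the 3 stefins, the serum amyloid pair Saa3 and Saa1 with Hps5 on chromosome 7, the interleukin 36 genes Il1f9 and Il1f6 on chromosome 2, the nonclassical class I genes H2-Q8, H2-Q6 and H2-Q7 on chromosome 17, and Ddt with the glutathione transferases Gstt3, Gstt1, Gstt4 and Gstt2 on chromosome 10. These families too hold near copies whose reads may be divided among them.

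The bases before the start of 5 of these genes are shown with some of the motifs counted in the comparison of promoters. Not every motif shown differed there: the looser kappaB form, marked in Tnf and Lcn2, was in 64.6% of lower and 68.0% of all measured promoters. Sequences are those of RefSeq, build GRCm38.p6, 250 bases up to the start, and are in lower case with some of the motif matches in capitals. Capitals mark the ISRE core (GAAA, any 2 bases, GAAA, on either strand), a kappaB form (GGGA, any 4 bases, CC) in Cxcl10, the looser kappaB form (GGG, any 5 bases, CC) in Tnf and Lcn2, the C/EBP form (TTGC, any 2 bases, AA) in Lcn2 and the TATA box (TATAAA) in Tnf. Other matches are left in lower case, among them an AP-1 form in Cxcl10 and an AP-1 and a narrower kappaB form in Rsad2. The first 3 genes are interferon targets, lower in tolerized cells, and each holds an ISRE core. They do not stand for all of the lowest genes. Of the lowest genes named above, 16 had a promoter in the comparison, and 6 of these promoters held an ISRE core. Those of Cmpk2 and Ifit2 held none.
Cxcl10 (chr5:92348890-92349139, reverse strand): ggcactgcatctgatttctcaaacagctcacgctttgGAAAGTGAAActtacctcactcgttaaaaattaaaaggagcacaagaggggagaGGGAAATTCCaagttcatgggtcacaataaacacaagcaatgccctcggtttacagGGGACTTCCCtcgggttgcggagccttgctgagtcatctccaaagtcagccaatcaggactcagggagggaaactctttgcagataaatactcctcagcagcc
Rsad2 (chr12:26456453-26456702, reverse strand): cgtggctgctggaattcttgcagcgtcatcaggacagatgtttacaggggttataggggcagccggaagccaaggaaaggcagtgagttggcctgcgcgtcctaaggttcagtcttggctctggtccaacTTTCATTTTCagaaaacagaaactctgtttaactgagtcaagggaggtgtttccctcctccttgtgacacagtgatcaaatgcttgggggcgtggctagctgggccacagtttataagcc
Ifit3 (chr19:34583279-34583528, forward strand): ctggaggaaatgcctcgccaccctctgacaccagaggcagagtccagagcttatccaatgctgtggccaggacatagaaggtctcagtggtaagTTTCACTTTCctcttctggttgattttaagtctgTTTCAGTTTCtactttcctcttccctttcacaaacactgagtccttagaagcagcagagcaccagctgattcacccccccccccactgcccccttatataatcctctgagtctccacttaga
Tnf (chr17:35202008-35202257, reverse strand): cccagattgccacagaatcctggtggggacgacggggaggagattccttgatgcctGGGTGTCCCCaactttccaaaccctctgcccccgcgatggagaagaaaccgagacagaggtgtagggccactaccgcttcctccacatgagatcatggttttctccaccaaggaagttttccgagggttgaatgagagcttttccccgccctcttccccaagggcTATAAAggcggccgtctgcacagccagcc
Lcn2 (chr2:32387740-32387989, reverse strand): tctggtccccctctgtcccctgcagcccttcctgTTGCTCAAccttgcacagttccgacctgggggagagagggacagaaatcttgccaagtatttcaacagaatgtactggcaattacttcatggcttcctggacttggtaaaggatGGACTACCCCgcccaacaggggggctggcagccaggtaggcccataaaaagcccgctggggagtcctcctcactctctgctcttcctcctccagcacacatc

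The ISRE core, which the complex with STAT2 and IRF9 and other IRF factors bind, began 213 bases before the start of Cxcl10, 120 before that of Rsad2, and 156 and 122 before that of Ifit3. The Tnf and Lcn2 windows held none. Promoters of 300 bases, 250 before to 50 after the start, were found by symbol or former symbol for 342 of 423 lower, 1631 of 1968 higher and 7792 of all 9422 measured genes, small RNA genes and those on chromosome 18 left out. The ISRE core was in 56 of the 342 lower promoters (16.4%), 40 of the 1631 higher ones (2.45%) and 259 of all 7792 (3.32%), and in 3.49% of the promoters of all 27025 RefSeq symbols in the table. The TATA box was in 17.3% of lower, 5.70% of higher and 7.03% of all measured promoters. The AP-1 forms TGAGTCA and TGACTCA were in 8.19% of lower, 3.0% of higher and 3.62% of all measured promoters, and the C/EBP form was in 14.9% of lower, 10.2% of higher and 8.46% of all measured promoters.

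The kappaB, GAS and cyclic AMP motifs differed less between lower genes and all measured genes. The looser kappaB form was in 64.6% of lower, 68.2% of higher and 68.0% of all measured promoters, and the narrower one, which is part of it, in 30.7% of lower, 25.8% of higher and 26.0% of all. The STAT motif GAS (TTC, any 3 bases, GAA) was in 8.19% of lower, 6.68% of higher and 7.10% of all, and the cyclic AMP response element TGACGTCA in 3.51% of lower, 2.58% of higher and 3.48% of all. The hypoxia element ACGTG was rarer in lower promoters, in 14.6% of lower, 30.2% of higher and 27.4% of all measured promoters. Lower promoters also had fewer CpG pairs than their C and G content would give, with a median ratio of observed to expected of 0.51, against 0.76 in higher and 0.79 in all measured promoters. The hypoxia element holds a CG pair itself, and the part of base composition in its share was not tested. A match describes these letters only and says nothing of binding.

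The inflammatory cytokines went both ways. Of 27 measured, 12 were at least 2-fold lower and 5 at least 2-fold higher in tolerized cells (16 and 4 after rescaling), with a median 1.31 below that of all genes. Tnf had 1235 FPKM in tolerized, 13818 FPKM in LPS and 28.7 FPKM in naive cells (-3.48). Il12b, the shared subunit of interleukins 12 and 23, had 22.8 FPKM in tolerized, 144 FPKM in LPS and 0.245 FPKM in naive cells (-2.61), and its partner Il23a had 9.2 FPKM in tolerized, 45 FPKM in LPS and 0.0413 FPKM in naive cells (-2.17). The interleukin 27 subunit gene Il27 had 51.8 FPKM in tolerized, 725 FPKM in LPS and 0.771 FPKM in naive cells (-3.78). Each of these 4 was above naive in tolerized cells and more than 4-fold below its LPS level.

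Il6 and Il1b, by contrast, lay within 2-fold. Il6 had 2317 FPKM in tolerized, 4138 FPKM in LPS and 1.25 FPKM in naive cells (-0.84) and Il1b had 10682 FPKM in tolerized, 15482 FPKM in LPS and 10.2 FPKM in naive cells (-0.54). On the rescaled scale Il6 passed 2-fold at -1.24, and Il1b stayed at -0.94. Il10, the anti-inflammatory cytokine, had 27.1 FPKM in tolerized, 49 FPKM in LPS and 1.26 FPKM in naive cells (-0.83, or -1.23 rescaled). Il18 (28 against 118 FPKM), Lif (29.1 against 145 FPKM) and Csf1 (14.7 against 59.8 FPKM) were all at least 2-fold lower.

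The 5 cytokine genes higher in tolerized cells included Ebi3, the partner subunit of Il27, with 95.2 FPKM in tolerized, 38 FPKM in LPS and 21.2 FPKM in naive cells. Besides Inhba, with 194 FPKM in tolerized, 11.8 FPKM in LPS and 0.216 FPKM in naive cells, and Csf3, with 400.5 FPKM in tolerized, 36.2 FPKM in LPS and 0.206 FPKM in naive cells, these were the interleukin 36 genes Il1f9 (15.5 against 2.14 FPKM) and Il1f6 (9.15 against 1.01 FPKM) in tolerized against LPS cells. Outside the list, and singled out after their values were seen, the interleukin 17 genes Il17a (2.37 against 0.325 FPKM) and Il17f (7.17 against 0.216 FPKM) were low but higher in tolerized cells, and both were listed at 0 in naive cells. Csf3 was at least 2-fold higher in KO cells too (374 FPKM in KO tolerized and 136 FPKM in KO LPS cells), but Inhba was not (129.9 FPKM in KO tolerized and 126 FPKM in KO LPS cells).

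Chemokines were lower for the most part. Of 22 measured, 12 were at least 2-fold lower and 5 at least 2-fold higher (15 and 4 after rescaling), with a median 1.58 below that of all genes. Ccl3 and Ccl4, which draw monocytes and T cells, had 5864 against 20884 FPKM and 2161 against 12355 FPKM in tolerized against LPS cells. The neutrophil chemokines Cxcl1 and Cxcl2 had 2408 against 7092 FPKM and 6767 against 21286 FPKM. All 4 were far above their naive levels of at most 57 FPKM in both. Higher in tolerized cells were Cxcl5, a further neutrophil chemokine (261 FPKM in tolerized, 38.9 FPKM in LPS and 0.657 FPKM in naive cells, log2 2.71), Ccl17 (96.3 against 32 FPKM) and Ccl22 (486 against 168 FPKM), both ligands of Ccr4, and Pf4, platelet factor 4 (4869 FPKM in tolerized, 948 FPKM in LPS and 448 FPKM in naive cells, log2 2.36). Cxcl3, at the limit (6664 against 3330.2 FPKM), was the other one, and Ppbp, a platelet chemokine, had 7.11 against 3.66 FPKM. Of 15 chemotactic receptor genes 5 were at least 2-fold higher, led by Gpr35 (13.7 against 0.813 FPKM) and the chemokine receptor gene Ccr1 (42.3 against 11.8 FPKM), and 2 lower, Ccrl2 (76.7 against 623 FPKM) and the C5a receptor gene C5ar1 (58.7 against 135 FPKM), with 2 higher and 3 lower after rescaling.

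**Figure D4:**
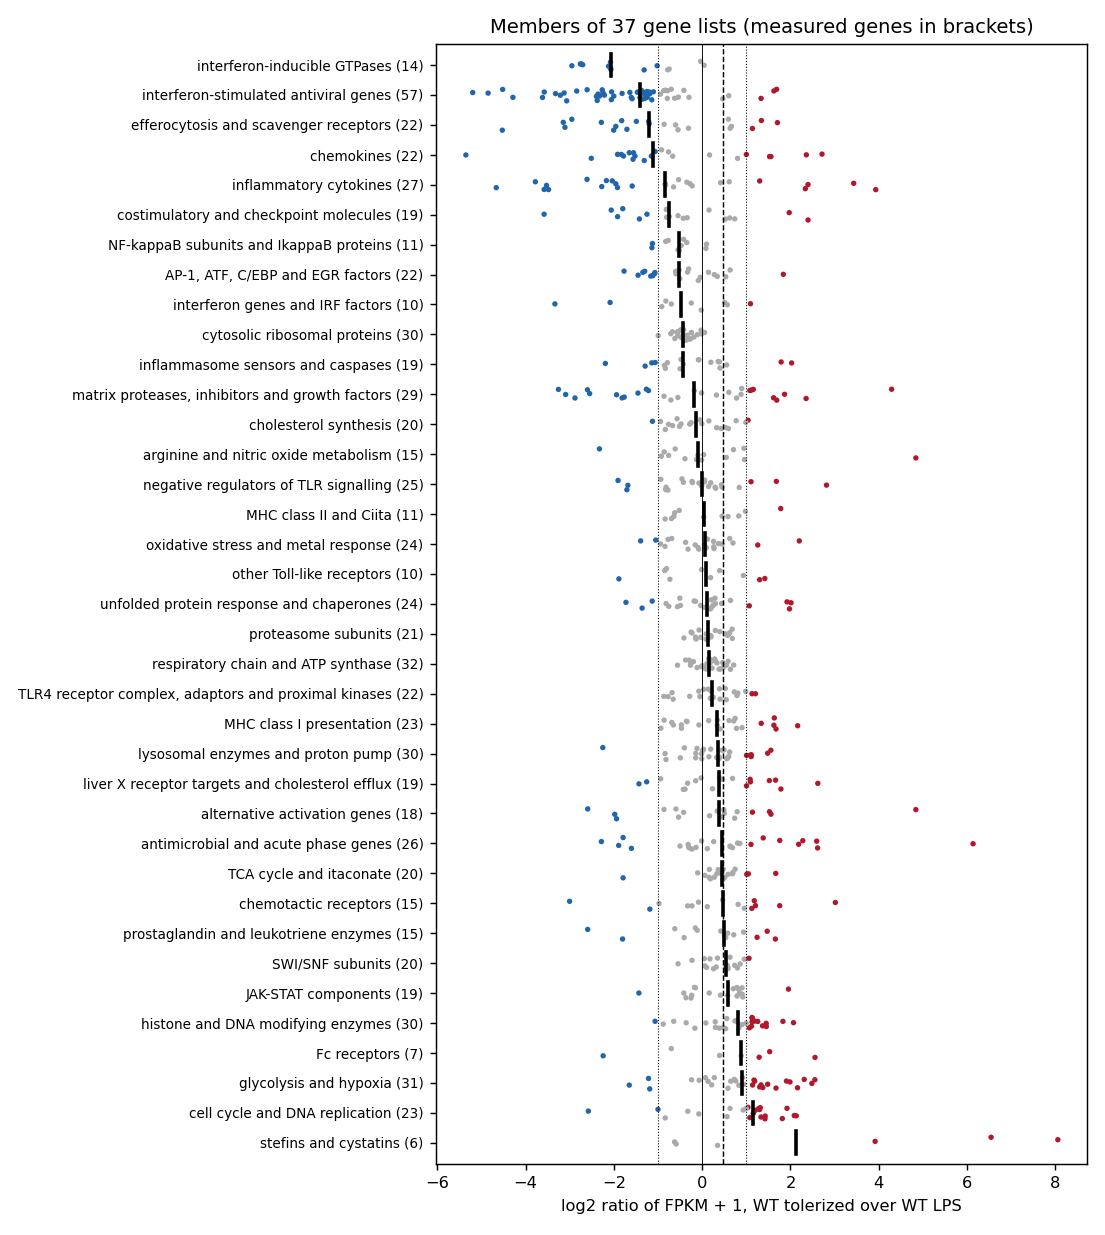
Log2 ratio of FPKM + 1, WT tolerized over WT LPS, for each measured member of 37 gene lists, with the list median as a black bar. Solid, dashed and dotted lines mark no difference, the median of all genes (0.47) and 2-fold; the interferon lists lie to the left (medians -2.07 and -1.41), while the cell cycle and stefin lists have the highest medians (1.16 and 2.13).

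Few genes of the receptor and its adaptors passed 2-fold. Of 22 genes of the TLR4 complex and its first kinases 2 were at least 2-fold higher and none lower (none higher and 3 lower after rescaling). Tlr4 had 27.9 FPKM in tolerized, 12.2 FPKM in LPS and 16 FPKM in naive cells (1.13), and Ikbke, a kinase of the TRIF branch, had 72.2 FPKM in tolerized, 30.7 FPKM in LPS and 25.5 FPKM in naive cells (1.21). Cd14 had 1430.3 FPKM in tolerized, 2297 FPKM in LPS and 346 FPKM in naive cells (-0.68) and Myd88 had 88.1 FPKM in tolerized, 162 FPKM in LPS and 43.4 FPKM in naive cells (-0.87), both lower by less than 2-fold as deposited and by more than 2-fold when rescaled (-1.09 and -1.28). Ticam1, which encodes TRIF, read higher in tolerized cells (20.6 against 11.5 FPKM). Among other Toll-like receptors, Tlr2 was at least 2-fold lower (204 FPKM in tolerized, 757 FPKM in LPS and 321 FPKM in naive cells, -1.89) and its partners Tlr1 (86.8 against 31.8 FPKM) and Tlr6 (25 against 9.57 FPKM) at least 2-fold higher. Of these 10 receptors 1 was higher and 4 were lower after rescaling.

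Of 11 NF-kappaB and IkappaB genes 2 were at least 2-fold lower and none higher (4 and none after rescaling), with a median 0.99 below that of all genes. Nfkbiz had 105 FPKM in tolerized, 233 FPKM in LPS and 16.3 FPKM in naive cells (-1.14), Nfkb1 had 148 FPKM in tolerized, 325 FPKM in LPS and 81.2 FPKM in naive cells (-1.13) and Nfkbia, the inhibitor induced by NF-kappaB itself, had 565 FPKM in tolerized, 809 FPKM in LPS and 99.8 FPKM in naive cells (-0.52). All 11 had more FPKM in tolerized than in naive cells. Of 22 AP-1, ATF, C/EBP and EGR factors 8 were at least 2-fold lower and 1 higher (9 and 1 after rescaling). Myc (19.3 against 50.6 FPKM), Junb (177 against 397 FPKM), Cebpb (189.9 against 403 FPKM) and Batf2 (15.2 against 54.2 FPKM) were among the lower ones and Batf3 (6.68 against 1.15 FPKM) was the higher one.

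Genes that restrain TLR signalling showed no common direction. Of 25 measured, 3 were at least 2-fold higher and 3 at least 2-fold lower (2 and 7 after rescaling), with a median 0.48 below that of all genes. Inpp5d, the phosphatase SHIP-1, had 36.4 FPKM in tolerized, 4.31 FPKM in LPS and 95.5 FPKM in naive cells (2.82), and the phosphatase gene Ptpn6, which encodes SHP-1, had 186 FPKM in tolerized, 57.3 FPKM in LPS and 187 FPKM in naive cells (1.68). In both the LPS value was the low one and the tolerized value lay nearer to naive. Irak3, the inhibitory kinase homologue IRAK-M that is often linked to tolerance, had 152 FPKM in tolerized, 112 FPKM in LPS and 34.8 FPKM in naive cells (0.44), within 2-fold. Cish (21.9 against 84.7 FPKM), Dusp2 (15.8 against 52.9 FPKM) and Zfp36, which destabilizes Tnf mRNA (117 against 386 FPKM), were at least 2-fold lower. Tnfaip3, the ubiquitin editor A20, had 336 against 463 FPKM.

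Several antimicrobial and acute phase genes were higher. Of 26 measured, 8 were at least 2-fold higher and 4 at least 2-fold lower (6 and 4 after rescaling) beside 20.8% and 4.58% of all genes, with a median of 0.45 against 0.47 for all. Besides Lcn2 and Saa3, complement factor B (Cfb) had 2449 FPKM in tolerized, 538 FPKM in LPS and 167 FPKM in naive cells (2.19), C3 had 275 FPKM in tolerized, 55.9 FPKM in LPS and 96.3 FPKM in naive cells (2.28) and Hp, haptoglobin, which binds haemoglobin, had 469 FPKM in tolerized, 76.9 FPKM in LPS and 246 FPKM in naive cells (2.59). Slpi, an antiprotease, had 4949 FPKM in tolerized, 1898 FPKM in LPS and 584 FPKM in naive cells (1.38). Lower were Irg1 (Acod1), the enzyme that makes itaconate (985 FPKM in tolerized, 3416 FPKM in LPS and 37 FPKM in naive cells, -1.79), the pentraxin Ptx3 (14.4 against 56 FPKM), Lyz1 (835 against 2540.1 FPKM) and Cd5l (2.87 against 17.8 FPKM). Nos2, the inducible nitric oxide synthase, was level, with 23.3 FPKM in tolerized, 23.5 FPKM in LPS and 0.0752 FPKM in naive cells (-0.01, counting interval -0.10 to 0.07).

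Of the 6 stefin and cystatin genes measured 3 were at least 2-fold higher and none lower, as deposited and rescaled. Of 18 alternative activation genes 4 were at least 2-fold higher, Arg1, Ccl17, Ccl22 and Msr1 (563 against 255 FPKM), and 3 were at least 2-fold lower, Alox15 (9.49 against 62.4 FPKM), Mrc1 (1.85 against 10.3 FPKM) and Fn1 (175 against 676 FPKM). Chi3l3 (3.58 against 2.23 FPKM) and Retnla (74.7 against 100.4 FPKM), which interleukin 4 induces in mouse macrophages, were not past 2-fold. After rescaling 3 of the 18 were higher and 4 lower. Genes of matrix turnover and growth factors went both ways: of 29 measured, 8 were at least 2-fold higher and 11 at least 2-fold lower (5 higher and 13 lower after rescaling). The proteases Mmp9 (116 FPKM in tolerized, 4.99 FPKM in LPS and 6.03 FPKM in naive cells), Mmp13 (649 FPKM in tolerized, 126 FPKM in LPS and 9.69 FPKM in naive cells) and Mmp14 (504 FPKM in tolerized, 155 FPKM in LPS and 38.3 FPKM in naive cells) were higher. Lower were the growth factors Areg (7.28 against 78.3 FPKM), Igf1 (11.3 against 90.0 FPKM) and Pdgfb (20.9 against 127 FPKM) and osteopontin (Spp1, 8.64 against 57.5 FPKM). Of 15 prostaglandin and leukotriene enzymes 3 were higher, among them Alox12 (2.57 against 0.131 FPKM), and 2 lower, Alox15 and the prostacyclin synthase gene Ptgis (3.01 against 13 FPKM), with 2 higher and 3 lower after rescaling.

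Among genes for the uptake of dead cells, more were lower than higher in tolerized cells. Of 22 efferocytosis and scavenger receptor genes 12 were at least 2-fold lower and 3 at least 2-fold higher (14 and 1 after rescaling), with a median 1.68 below that of all genes. In KO cells 5 of 20 were lower and 1 higher. Vsig4, the complement receptor CRIg, had 0.998 FPKM in tolerized, 45.2 FPKM in LPS and 158 FPKM in naive cells (-4.53). The complement C1q chains C1qa, C1qb and C1qc, neighbours on chromosome 4 (136436061 to 136454759, mm9), had 122 against 434 FPKM, 96.2 against 753 FPKM and 57.8 against 520.2 FPKM in tolerized against LPS cells, with naive levels of 1184, 1396 and 1390.4 FPKM. Trem2, a lipid-sensing receptor, had 13.5 FPKM in tolerized, 124 FPKM in LPS and 446 FPKM in naive cells (-3.11). In all 5 the naive level was the highest and the tolerized level the lowest, whereas in 57 of 57 antiviral genes the naive level was below the LPS level.

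Of 15 markers of large peritoneal macrophages 6 were at least 2-fold lower and 3 at least 2-fold higher (8 and 2 after rescaling), and in KO cells 4 of 14 were lower and 4 higher. Gata6, the factor that defines these cells, had 1.07 FPKM in tolerized, 6.15 FPKM in LPS and 13 FPKM in naive cells, Timd4 had 14.7 FPKM in tolerized, 62.1 FPKM in LPS and 35.6 FPKM in naive cells and Cd9 had 212 FPKM in tolerized, 563 FPKM in LPS and 812 FPKM in naive cells. The integrin gene Itga6 (18.9 FPKM in tolerized, 4.2 FPKM in LPS and 115 FPKM in naive cells), Icam2 (22.1 FPKM in tolerized, 9.45 FPKM in LPS and 23.4 FPKM in naive cells) and Thbs1 (784 FPKM in tolerized, 255 FPKM in LPS and 444 FPKM in naive cells) were higher. Of 12 general macrophage markers 3 were at least 2-fold higher, Fcgr1 (25.8 against 3.56 FPKM), Itgam (545 against 126 FPKM) and Emr1, and 2 lower, Mrc1 and Aif1 (6.81 against 16.4 FPKM), with 3 higher and 4 lower after rescaling. Of 8 markers of small peritoneal macrophages and monocytes 2 were higher, Clec4a1 (194 against 39 FPKM) and Ly6c2 (41.7 against 15.2 FPKM), and 2 lower, among them Plac8 (121 against 272 FPKM).

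Of 19 liver X receptor targets and partners 7 were at least 2-fold higher and 2 at least 2-fold lower (4 and 3 after rescaling), beside 20.8% and 4.58% of all genes, and the list's median was 0.08 below that of all genes. Abca1, the cholesterol exporter, had 41.2 FPKM in tolerized, 5.87 FPKM in LPS and 68.9 FPKM in naive cells (2.62) and Nr1h3, which encodes LXR alpha, had 17.5 FPKM in tolerized, 4.38 FPKM in LPS and 13 FPKM in naive cells (1.78). Pltp (85.5 FPKM in tolerized, 206 FPKM in LPS and 484 FPKM in naive cells) and Smpdl3a (71.5 FPKM in tolerized, 195 FPKM in LPS and 413 FPKM in naive cells) were lower, and Apoe, at 4254 FPKM in tolerized, 8172 FPKM in LPS and 17362 FPKM in naive cells, was lower by less than 2-fold. Of 7 Fc receptor genes 3 were at least 2-fold higher, Fcgr1, Fcgr3 (196 against 79.6 FPKM) and Fcgr4 (22.8 against 7.27 FPKM), and Fcrls (0.16 against 4.5 FPKM) was lower (2 higher and 2 lower after rescaling). Of 20 genes of cholesterol synthesis 1 was higher and 1 lower (none higher and 5 lower after rescaling).

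Of 23 genes of antigen presentation on class I molecules 5 were at least 2-fold higher and none lower (4 higher and 4 lower after rescaling), a share close to the 20.8% of all genes, and the list's median was 0.12 below that of all genes. They were the peptide-loading chaperones Calr (1299 FPKM in tolerized, 289 FPKM in LPS and 392 FPKM in naive cells, 2.16) and Pdia3 (643 FPKM in tolerized, 201 FPKM in LPS and 289 FPKM in naive cells, 1.67) and the class I genes H2-Q6, H2-Q7 and H2-T22. Among 24 genes of the unfolded protein response 4 were higher, Dnajb9 (133 against 32.3 FPKM), Ern1 (11 against 2.04 FPKM), Hsp90b1 (838 against 220.5 FPKM) and Hsph1 (82.8 against 39 FPKM), and 3 lower, Chac1, Hspb1 and Trib3 (3 higher and 5 lower after rescaling). Of 11 class II genes 1 was at least 2-fold higher, Ciita, the class II transactivator (11.6 FPKM in tolerized, 2.68 FPKM in LPS and 16.9 FPKM in naive cells), and after rescaling 4 were lower. Of 19 costimulatory molecules 6 were at least 2-fold lower, among them Cd40 (158 against 599 FPKM), Tnfsf9 (13.3 against 170.2 FPKM) and Icam1 (124 against 296 FPKM), and 2 higher, Tnfrsf9 (6.87 against 0.493 FPKM) and Slamf1 (19.5 against 4.24 FPKM), with 10 lower and 2 higher after rescaling.

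Several glycolytic and hypoxia-responsive genes were higher. Of 31 measured, 14 were at least 2-fold higher and 3 at least 2-fold lower (8 and 3 after rescaling), beside 20.8% and 4.58% of all genes (9.32% and 8.21% after rescaling), with a median 0.44 above that of all genes. The lactate exporter gene Slc16a3 had 41.5 FPKM in tolerized, 6.23 FPKM in LPS and 12.5 FPKM in naive cells (2.55), Bnip3 had 15.7 FPKM in tolerized, 1.99 FPKM in LPS and 12.4 FPKM in naive cells (2.49), the glycolytic enzyme genes Pfkl and Tpi1 had 37.4 against 8.67 FPKM and 103 against 26.6 FPKM, and the oxygen sensor gene Egln3 had 8.84 FPKM in tolerized, 1.2 FPKM in LPS and 7.42 FPKM in naive cells (2.16). Adm (38.6 against 124 FPKM), which encodes adrenomedullin, and Vegfa (2.61 against 7.39 FPKM) were among the lower ones. In KO cells 22 of the 31 were at least 2-fold higher, against 24.0% of all genes. None of 32 respiratory chain genes passed 2-fold, and of 20 genes of the TCA cycle and itaconate 3 were higher (1 after rescaling) and 1, Irg1, lower. Of 15 genes of arginine and nitric oxide metabolism Arg1 was the 1 higher gene, and Sat1, a polyamine acetyltransferase, the 1 lower gene (83.4 against 423 FPKM), with 3 lower after rescaling. Of 24 oxidative stress and metal genes 2 were higher, Nqo1 (40.1 against 7.95 FPKM) and Prdx6 (252 against 105 FPKM), and 2 lower, Srxn1 (291 against 767 FPKM) and the metallothionein gene Mt2 (75.2 against 157 FPKM), with 1 higher and 6 lower after rescaling.

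Of 23 cell cycle and replication genes 14 were at least 2-fold higher and 2 at least 2-fold lower (8 and 3 after rescaling), with a median 0.69 above that of all genes. Their median level was 8.89 FPKM in tolerized cells. All genes with a larger value of 5 to 10 FPKM had a median log2 ratio of 0.66, against 1.16 for this list. In KO cells 9 of 23 were at least 2-fold higher and 2 lower, against 24.0% and 4.35% of all KO genes. Levels were low: Top2a had 6.63 FPKM in tolerized, 0.799 FPKM in LPS and 1.64 FPKM in naive cells, E2f1 had 6.42 FPKM in tolerized, 0.693 FPKM in LPS and 5.48 FPKM in naive cells and Rrm2 had 4.99 FPKM in tolerized, 0.581 FPKM in LPS and 1.47 FPKM in naive cells. Cdkn1a, the cell cycle inhibitor p21, was much more abundant and lower in tolerized cells (117 FPKM in tolerized, 703 FPKM in LPS and 67.4 FPKM in naive cells, -2.58), and Pcna, at the 2-fold limit, had 74.9 FPKM in tolerized, 151 FPKM in LPS and 109.8 FPKM in naive cells. Of 30 histone and DNA modifying enzymes 12 were at least 2-fold higher, among them Dnmt1 (7.62 against 1.05 FPKM) and Hdac7 (8.29 against 2.39 FPKM), and Kdm6b, the demethylase JMJD3, was lower (12.6 against 27.5 FPKM). After rescaling 4 were higher and 3 lower, close to the 9.32% and 8.21% of all genes. The list's median was 8.44 FPKM in tolerized cells. Of all genes with a larger value of 5 to 10 FPKM, 29.9% were at least 2-fold higher as deposited, against 20.8% of all measured genes. Of 20 SWI/SNF subunits 1 was past 2-fold, and Smarca4, the ATPase BRG1, had 20.1 FPKM in tolerized, 11.7 FPKM in LPS and 17.1 FPKM in naive cells (0.73).

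Genes of the ribosome and the proteasome stayed within 2-fold on the deposited scale. None of 30 ribosomal protein genes and none of 21 proteasome genes passed 2-fold, with medians of -0.43 and 0.13. After rescaling, 4 ribosomal protein genes were at least 2-fold lower, and 29 of the 30 had fewer FPKM in tolerized than in LPS cells. Of 30 lysosomal genes 6 were higher and 1 lower, Atp6v0d2 (1.03 FPKM in tolerized, 8.66 FPKM in LPS and 98.4 FPKM in naive cells), with 2 higher and 3 lower after rescaling. The deposited counts are close to the 20.8% and 4.58% of all genes. Of 19 inflammasome genes 2 were higher, Nlrc4 (17.5 against 3.54 FPKM) and Ripk3 (11.5 against 2.61 FPKM), and 4 lower, among them Ripk2 (20.8 against 99 FPKM), the kinase of NOD receptors, with 2 higher and 7 lower after rescaling. The targeted microRNA genes Mir221 and Mir222 were listed at 0 in all libraries, and since mature microRNAs are not captured in libraries of poly-A RNA, this does not check the genotype.

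The same contrast in KO cells used libraries that took no part in choosing the genes. Across 9427 genes measured in both genotypes, the WT and KO log2 ratios had a Pearson r of 0.72 and a Spearman rho of 0.73, a description across genes that are not independent replicates. Of the 444 lower genes 405 were measured in KO, and 244 of these (60.2%) were at least 2-fold lower there, against 4.35% of all KO genes. Of the 2018 higher genes 1966 were measured in KO, and 1261 (64.1%) were at least 2-fold higher, against 24.0%. The antiviral genes were lower in KO cells as well, 34 of 57 at least 2-fold, with Rsad2 at 332 FPKM in KO tolerized and 4650.2 FPKM in KO LPS cells and Cxcl10 at 312 FPKM in KO tolerized and 5246 FPKM in KO LPS cells. Tnf had 1352 FPKM in KO tolerized and 17407 FPKM in KO LPS cells and Il12b had 14.8 FPKM in KO tolerized and 81.4 FPKM in KO LPS cells. Interferon beta itself had 1.65 FPKM in KO tolerized and 134 FPKM in KO LPS cells. The KO values thus lay on the same side as those of WT, with more Ifnb1 and Rsad2 in KO than WT LPS cells. Il6 had 1624 FPKM in KO tolerized and 5013 FPKM in KO LPS cells, Il1b had 6326 FPKM in KO tolerized and 9595 FPKM in KO LPS cells and Nos2 had 304 FPKM in KO tolerized and 225 FPKM in KO LPS cells. Among the higher genes, Lcn2 had 4112 FPKM in KO tolerized and 146 FPKM in KO LPS cells and Arg1 had 174 FPKM in KO tolerized and 3.47 FPKM in KO LPS cells. KO naive cells had 220 FPKM of Tnf, 84.7 FPKM of Lcn2 and 15.7 FPKM of Arg1, against 28.7, 2.37 and 16.7 FPKM in WT naive cells.

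**Figure D5:**
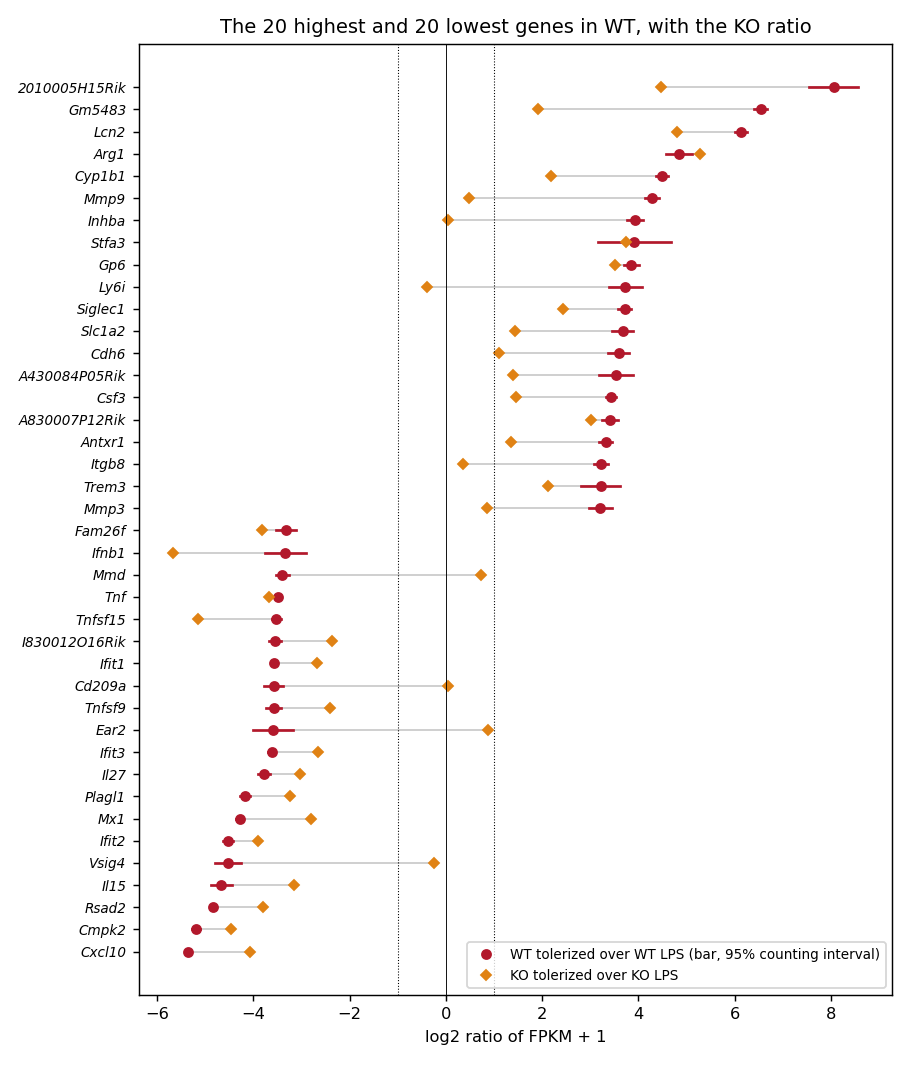
Log2 ratio of tolerized over LPS cells, on the scale of FPKM + 1, in WT (circles, with 95% counting intervals) and KO cells (diamonds), 1 library each, for the 20 highest and 20 lowest genes in WT. Most pairs lie on one side of 0, while Mmp9, Inhba, Ly6i, Itgb8, Mmp3, Vsig4, Ear2, Cd209a and Mmd are past 8-fold in WT and within 2-fold in KO.

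Of the 40 genes in that plot 9 were not past 2-fold in KO. Vsig4 had 0.131 FPKM in KO tolerized and 0.337 FPKM in KO LPS cells, Ear2 had 1.24 FPKM in KO tolerized and 0.233 FPKM in KO LPS cells and Mmd had 6.81 FPKM in KO tolerized and 3.69 FPKM in KO LPS cells, while Cd209a was at 0.0314 FPKM in KO tolerized and listed at 0 in KO LPS cells. These genes were thus low in KO tolerized and KO LPS cells, whereas WT LPS cells had 45.2 FPKM of Vsig4, 42 FPKM of Ear2, 87.4 FPKM of Mmd and 11.7 FPKM of Cd209a. A high WT LPS value took part in choosing them. Of all 72 genes lower in WT whose KO log2 ratio was under 0.5 in size, 63 had less in KO LPS than in WT LPS cells. Vsig4, Ear2, Mmd and Cd209a were lower in KO naive than in WT naive cells as well. The values were 1.87 against 158 FPKM for Vsig4, 1.14 against 55.9 FPKM for Ear2, 10.8 against 21.2 FPKM for Mmd and 0.0898 against 36.9 FPKM for Cd209a. The C1q genes C1qb (139 FPKM in KO tolerized and 156 FPKM in KO LPS cells) and C1qc (78 FPKM in KO tolerized and 101 FPKM in KO LPS cells) were also low in KO LPS cells, and none of the 3 C1q genes passed 2-fold in KO.

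Some genes that were higher in WT tolerized than WT LPS cells stood at like levels in KO tolerized and KO LPS cells. Inhba had 129.9 FPKM in KO tolerized and 126 FPKM in KO LPS cells, Mmp9 had 58.4 FPKM in KO tolerized and 41.8 FPKM in KO LPS cells and Ly6i had 146 FPKM in KO tolerized and 192 FPKM in KO LPS cells. C3 had 534 FPKM in KO tolerized and 614 FPKM in KO LPS cells, Cfb had 3142 FPKM in KO tolerized and 2781 FPKM in KO LPS cells and Hp had 523 FPKM in KO tolerized and 471 FPKM in KO LPS cells. In each of the 6 the KO LPS level was above the WT LPS level, which was 11.8 FPKM for Inhba, 3.75 FPKM for Ly6i and 538 FPKM for Cfb. The same held for 146 of all 150 genes higher in WT whose KO log2 ratio was under 0.5 in size. A low WT LPS value took part in choosing such genes, so this order is no separate result. Naive cells, which had no LPS, differed too. Ly6i had 261 FPKM in KO naive and 2.92 FPKM in WT naive cells, and Mmp9 had 65 against 6.03 FPKM. For both genes the KO naive level was above the KO tolerized one. Inhba had 10.8 FPKM in KO naive and 0.216 FPKM in WT naive cells. With 1 library per group, genotype and library cannot be told apart in these differences.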

How the data were processed

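Poly-A RNA of the macrophages was sequenced on a HiSeq2000 from TruSeq libraries, according to protocols and design text. For every library the authors deposited a table of FPKM values with lower and upper 95% bounds, per the file headers. The submitters' processing notes name bcl2fastq 1.8.4, TopHat, Cufflinks and the mouse build mm9. No source used here gives the annotation or the versions of TopHat and Cufflinks.

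Samples were grouped by their labels. From the deposited FPKM, log2 ratios of FPKM + 1 (pseudocount 1) were computed with Python 3.11.15, pandas 2.3.3 and numpy 2.4.6 and drawn with matplotlib 3.10.9, and the script was tested on simulated data. Of 23699 rows, 318 were not marked OK in both libraries, 529 had a symbol at more than 1 locus and 13166 were under 2 FPKM in both. The 9686 left include 28 small RNA genes, which such libraries measure poorly. They count among all genes but were not named and took no part in the promoter comparison. With 1 library per group no test was run. Counting intervals of a log2 ratio took the deposited bounds as 2 standard errors, whatever sources of error within a library those bounds hold. FPKM are relative to all fragments, so a few abundant genes can lower the values of all others. For rescaling, values were divided by 1.15 (tolerized) and 0.87 (LPS), the median ratio of a library to the geometric mean of the pair over 8218 genes.

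Genes were named by a rule: the 20 highest and 20 lowest, up to 6 members of each list with the largest ratios and any whose role is needed, 20 standing genes, and runs of at least 3 neighbours. The members, the 47 lists and the alternatives were chosen with earlier results of these data known. A few genes that these rules name are not reported here. Promoters came from RefSeq (GRCm38.p6) by symbol, and no coordinates were moved between builds.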

Additional observations from a re-analysis of the deposited data

Results flagged for a closer look

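Leaving out small RNA genes, 9 genes described here and measured in both genotypes were past 2-fold in opposite directions in WT and KO, with intervals that did not overlap in either. The difference between genotypes was not tested, as each value comes from 1 library. Fabp7, a fatty acid-binding protein, had a log2 ratio of -2.97 in WT (113 FPKM in tolerized and 892 FPKM in LPS cells) and 1.65 in KO (138 FPKM in KO tolerized and 43.5 FPKM in KO LPS cells). Ccl12, a monocyte chemokine, had -1.78 in WT (2.9 FPKM in tolerized and 12.4 FPKM in LPS cells) and 1.77 in KO (72.6 FPKM in KO tolerized and 20.6 FPKM in KO LPS cells). Pltp, which transfers phospholipids between lipoproteins, had -1.26 in WT and 1.22 in KO, where tolerized cells had 70.6 and LPS cells 29.7 FPKM. Vegfa had -1.22 in WT and 1.23 in KO, and Tnfrsf11a, the receptor RANK, had -1.15 in WT and 1.16 in KO. Trib3 had -1.13 in WT and 1.32 in KO, and Padi4 had -1.08 in WT and 1.43 in KO.

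For 1100001G20Rik and Gmds the directions were the other way round. 1100001G20Rik (Wfdc21) was higher in WT tolerized than WT LPS cells (log2 2.64; 15.4 FPKM in tolerized and 1.63 FPKM in LPS cells) and lower in KO (-1.23; 11.2 FPKM in KO tolerized and 27.7 FPKM in KO LPS cells), and Gmds had 1.07 in WT and -1.20 in KO at levels of at most 4.57 FPKM in these 4 libraries.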

How the results depend on the processing

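The count of genes at least 2-fold higher in tolerized cells was 2018 as reported, 903 after rescaling, 543 with a pseudocount of 5 and 954 with a minimum of 10 FPKM, and 1.5 times or less away (2002 to 2894) under the other alternatives. The count of lower genes was 444 as reported, 795 after rescaling and 323 to 500 under the others. The median log2 ratio of all genes was 0.47 as reported, 0.32 with a minimum of 10 FPKM, 0.32 with a pseudocount of 5 and 0.10 after rescaling. With Saa3 left out of the scaling, an alternative chosen after seeing the data, it was 0.66. In KO cells rescaling gave 901 higher genes in place of 2325 and 823 lower in place of 421; this too was added later. Of 831 named or listed genes, rescaling left 700 on the same side of the limits. It took 57 higher ones within 2-fold and made 74 lower. Neither this rescaling nor another pseudocount can reverse a ratio past 2-fold, so the direction of these genes was not checked. No paired analysis was possible because the labels give no replicate numbers, and no library could be left out, as each group has 1. Genes at 2 to 5 FPKM had intervals of a median 13.7% in tolerized and 15.3% in LPS cells on either side, so their ratios are the least certain.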

Other observations

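These genes stand in none of the lists and were chosen after their values were seen. The endoplasmic reticulum genes Pdia4 and Creld2 had more FPKM in tolerized cells, Pdia4 with 184 FPKM in tolerized, 33.4 FPKM in LPS and 56.5 FPKM in naive cells (log2 2.43) and Creld2 with 147 FPKM in tolerized, 28.3 FPKM in LPS and 33.3 FPKM in naive cells (2.34). Sdf2l1 had 141 against 29.3 FPKM and Hyou1 had 109.7 against 24.5 FPKM in tolerized against LPS cells. They do not stand for a group: of the 24 listed unfolded protein response and chaperone genes 4 were higher and 3 lower, with a median 0.35 below that of all genes. In KO cells Pdia4 had 80.8 FPKM in KO tolerized and 47.2 FPKM in KO LPS cells, within 2-fold, and Creld2 had 80.9 FPKM in KO tolerized and 32.9 FPKM in KO LPS cells. The lectin receptor genes Siglece (95.2 FPKM in tolerized, 11.5 FPKM in LPS and 5.87 FPKM in naive cells) and Clec4a3 (121 FPKM in tolerized, 16.1 FPKM in LPS and 101 FPKM in naive cells) were also higher. Siglece had a log2 ratio of 2.95 in WT and 3.07 in KO, and Clec4a3 one of 2.84 in WT and 2.97 in KO. The ferroxidase gene Cp, ceruloplasmin, had 179.8 FPKM in tolerized, 23.3 FPKM in LPS and 9.7 FPKM in naive cells (2.89).

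Fabp4, Fabp5 and Sepp1 had their highest level in naive and their lowest in tolerized cells. Fabp4, a fatty acid-binding protein, had 97.1 FPKM in tolerized, 669 FPKM in LPS and 889 FPKM in naive cells (-2.77) and Fabp5 had 29.7 FPKM in tolerized, 165 FPKM in LPS and 531 FPKM in naive cells (-2.44), and Sepp1, the plasma selenium carrier, had 21.8 FPKM in tolerized, 219 FPKM in LPS and 901 FPKM in naive cells (-3.27). Edn1, the vasoconstrictor endothelin 1, had 13.8 FPKM in tolerized, 95.3 FPKM in LPS and 0.111 FPKM in naive cells (-2.70), and Gdf15, a stress-induced hormone of the TGF-beta family, had 22.6 FPKM in tolerized, 192 FPKM in LPS and 13.4 FPKM in naive cells (-3.03). In KO cells Edn1 had 20.8 FPKM in KO tolerized and 106 FPKM in KO LPS cells and Gdf15 had 39.5 FPKM in KO tolerized and 247 FPKM in KO LPS cells.

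Of 50 loci with at least 2 FPKM whose symbol stands at more than 1 locus, tolerized cells had at least 2-fold more at 6 and at least 2-fold less at 12. These were left out of the counts above.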
